A study of Mus musculus with 11 samples.

Results

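The genes examined here are the 10 that encode the MHC class II antigen presentation machinery of the mouse: the chain genes H2-Aa, H2-Ab1 and H2-Eb1, the invariant chain gene Cd74, the peptide editor genes H2-DMa, H2-DMb1 and H2-DMb2, the editor's inhibitor genes H2-Oa and H2-Ob, and the transactivator gene Ciita. They were taken by gene name from the 55401 rows of the deposited count table, and the set was chosen with earlier results of these data known. All 10 were among the 20390 genes that passed the filter on low counts. The libraries are RNA-seq of CD11b+/CD45+ live cells sorted from the brain as microglia, the resident macrophages of the brain, from C57BL/6 mice of 9 to 10 months. Every group carried the NLGF alleles, a knock-in of humanised, mutated App under the gene's own promoter that gives amyloid plaques, so no group without amyloid pathology enters these comparisons. Of the 4 groups, 3 hold 3 libraries each: NLGF alone, Inpp5d+/-;NLGF with 1 working copy of Inpp5d, and Tyrobp-/-;Inpp5d+/-;NLGF, called the compound mutant below. Tyrobp-/-;NLGF, which lacks Tyrobp, holds 2. Tyrobp encodes the signalling adaptor of the receptor TREM2 and of other myeloid receptors, and Inpp5d encodes the inositol phosphatase SHIP1, which restrains that signalling. The series asks how a lower dose of Inpp5d bears on microglia that have lost this adaptor.

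Class II molecules display peptides from the endosome to CD4+ T cells. An alpha and a beta chain assemble on the invariant chain, which fills the groove and guides the complex to the endosome. Proteases then trim the invariant chain, the DM dimer exchanges its last fragment for a peptide, and the DO dimer holds DM in check. Transcription is switched by CIITA, which docks on factors bound to the X and Y boxes of the class II promoters. Microglia at rest hold little class II, and a subset near plaques takes it up, while dendritic cells, B cells, monocyte-derived cells and border macrophages hold more.

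The 8 genes other than Cd74 and Ciita lie in one stretch of the MHC, chr17:34092340-34316674 of GRCm38, 224 kb long. Ciita lies at chr16:10480059-10528418. H2-Eb1 (ENSMUSG00000060586.11, chr17:34305867-34316674) and H2-Aa (ENSMUSG00000036594.15, chr17:34282744-34287823) are given with their positions because the ratio of their reads is described below. In C57BL/6 mice H2-Eb1 has no working partner: the alpha chain gene H2-Ea is annotated in the table as a polymorphic pseudogene, and it held 1 read in all, in NLGF replicate 1, with 0 in the other 10 libraries. H2-Eb1 was read here as a transcript, and these data hold no protein measurement.

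Promoters are shown because the members share their switch but not their levels. RefSeq promoters (GRCm38.p6) matched 7 of the 10 members, all but H2-Ab1, Cd74 and Ciita. The lines below give, on the gene's strand and 5′ to 3′, the 105 bases from 135 to 31 bases before the annotated start of 6 of them. Capitals mark the letters AGNAACNNATGATG, taken as an X box, and ATTGG, the inverted CCAAT of a Y box. The X box letters were set after reading these promoters: they are the consensus of the 14 bases ending in ATGATG in H2-Eb1, H2-DMb1 and H2-Ob, which therefore hold them by construction.
H2-Eb1 (chr17:34305732-34305836): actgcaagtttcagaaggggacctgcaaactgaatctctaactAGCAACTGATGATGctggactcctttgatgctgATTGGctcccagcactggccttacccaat
H2-DMb1 (chr17:34153056-34153160): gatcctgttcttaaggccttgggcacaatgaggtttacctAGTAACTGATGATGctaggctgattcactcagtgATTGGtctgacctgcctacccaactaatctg
H2-Ob (chr17:34238770-34238874): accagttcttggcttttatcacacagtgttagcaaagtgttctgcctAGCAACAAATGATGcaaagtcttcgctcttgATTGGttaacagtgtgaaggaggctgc
H2-Aa (chr17:34287854-34287958): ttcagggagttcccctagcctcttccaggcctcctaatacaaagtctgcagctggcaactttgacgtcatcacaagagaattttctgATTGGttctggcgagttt
H2-DMb2 (chr17:34145114-34145218): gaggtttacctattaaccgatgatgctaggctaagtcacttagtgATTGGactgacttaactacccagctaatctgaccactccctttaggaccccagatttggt
H2-Oa (chr17:34092244-34092348): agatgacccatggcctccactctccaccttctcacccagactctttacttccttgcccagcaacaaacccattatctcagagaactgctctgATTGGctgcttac
Both strands were searched, from 250 bases before to 50 bases after each start. In H2-Eb1, H2-DMb1 and H2-Ob a Y box followed the X box letters on the gene's strand, with gaps of 19, 20 and 17 bases. Among all 32851 RefSeq promoters of the same length, 8 (0.0244%) held the X box letters and 37.4% held ATTGG. Only 3 (0.00913%) held both in that order 10 to 30 bases apart. They were the 3 promoters that set the X box letters, which are also among the 8, so these shares are no independent rate. H2-DMb2, which was left out of the consensus, holds 14 bases ending in ATGATG that differ from the X box letters at 1 base and lie 20 bases before its Y box. In H2-Aa and H2-Oa only the Y box was found, and the stretches shown hold no ATGATG on either strand. The X box letters end in ATGATG, so this search could not find an X box that departs from them. H2-DMa has 2 annotated starts, and ATTGG was found before the second, outside the stretch shown for the others. H2-Eb1 and H2-DMb1, which carry the same pair of boxes, had unlike values across the libraries, as given next.

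Depth was high, at 29490567 to 66637052 assigned reads per library, so 3 reads correspond to 0.0477 to 0.1001 CPM, reads scaled to library size. The targeted genes were checked against the labels: Tyrobp stood at 2194 ± 318 CPM (SD, n = 3) in NLGF and 2145 ± 179 in Inpp5d+/-;NLGF, against 7.98 ± 1.36 (n = 2) in Tyrobp-/-;NLGF and 5.16 ± 2.81 (n = 3) in the compound mutant. Inpp5d stood at 318 ± 116 and 448 ± 1.26 CPM in NLGF and Tyrobp-/-;NLGF, against 230 ± 45.5 and 236 ± 40.3 in the heterozygous groups, and the libraries of NLGF and Inpp5d+/-;NLGF overlapped. The library names of the Tyrobp-/- groups carry lower numbers than all others, so handling or litter cannot be told apart from Tyrobp genotype. The labels do not say how libraries relate to animals, and the tests rest on the spread among libraries, which may be technical. Microglial markers summed to 46651 to 56171 CPM in the 6 libraries with Tyrobp and to 49593 to 52383 CPM in the 5 without. Of these 11 markers, 8 were higher in mean without Tyrobp. Only Tmem119 did not overlap (6.17% of all genes in either direction), at 3040 to 3827 CPM with Tyrobp and 5085 to 5669 without. Csf1r was lower in mean, at 4245 to 6429 CPM with Tyrobp and 4224 to 5468 without.

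Level per length, as RPKM (CPM per kilobase of annotated exon), ranked the members over the 11 libraries. The medians were 142 RPKM for H2-DMb1, 129 for H2-Ab1, 119 for Cd74 and 102 for H2-DMa, and the ranges of these 4 overlapped. Median levels followed at 53.5 RPKM for H2-Aa, 37.1 for H2-Eb1, 20.0 for H2-Ob, 17.6 for H2-Oa and 10.9 for H2-DMb2. Each of these overlapped its neighbour in range, whereas H2-Aa (at most 67.9 RPKM) stayed under the lowest H2-DMa (84.4). Ciita, at a median of 0.0517 RPKM, was far below the rest. The main peptide editor genes were thus in the range of the chains, and they varied least: the coefficient of variation of CPM over all libraries was 13.03% for H2-DMb1 and 14.2% for H2-DMa. It was 17.7% for H2-Ob, 25.4% for H2-Oa, 24.5% for H2-DMb2, 31.4% for H2-Aa, 33.1% for H2-Ab1, 54.0% for H2-Eb1 and 55.1% for Cd74.

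**Figure D1:**
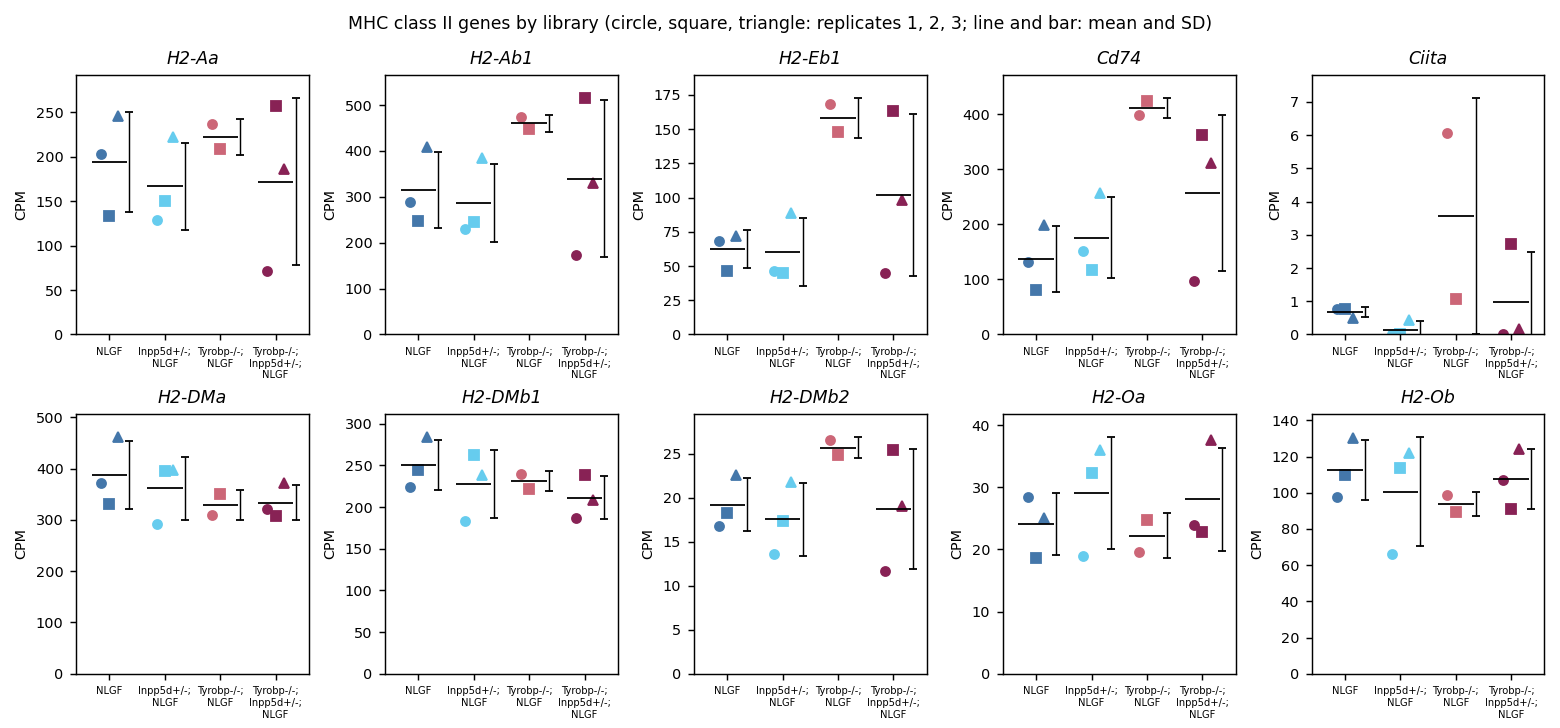
CPM of each class II gene (vertical axes, each from 0) in the 11 libraries of 4 genotypes; points are libraries, lines and bars the group mean and SD. H2-Eb1 and Cd74 are high in both Tyrobp-/-;NLGF libraries and in compound mutant replicates 2 and 3 but low in compound mutant replicate 1, whereas H2-DMa and H2-DMb1 differ little between libraries.

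H2-Eb1 and Cd74 had the largest differences with Tyrobp genotype among the members above 10 CPM, about 2-fold on average, and neither passed the threshold of 0.05 on the adjusted p. H2-Eb1, the beta chain of the I-E molecule, stood at 68.1, 46.2 and 72.2 CPM in NLGF and at 46.4, 45.2 and 88.5 in Inpp5d+/-;NLGF. In Tyrobp-/-;NLGF it stood at 168 and 148 CPM, and in the compound mutant at 44.9, 163 and 98.2. Thus 4 of the 5 libraries without Tyrobp lay above all 6 with it, and compound mutant replicate 1 was the lowest of all 11. The log2 difference was 1.35 (SE 0.465) for Tyrobp-/-;NLGF against NLGF (edgeR quasi-likelihood test, adjusted p = 0.258). It was 0.77 (SE 0.424, adjusted p = 0.461) for the compound mutant against Inpp5d+/-;NLGF. The average of both comparisons, called the pooled Tyrobp effect, was a 2.08-fold higher level (95% interval 1.28 to 3.39, adjusted p = 0.0963). In bulk samples such as these, fewer or more cells of a type and less or more RNA per cell cannot be told apart.

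Cd74, whose product chaperones the chains, stood at 131, 80.0 and 199 CPM in NLGF and at 152, 117 and 258 in Inpp5d+/-;NLGF. It stood at 399 and 424 CPM in Tyrobp-/-;NLGF and at 96.9, 363 and 312 in the compound mutant. Again compound mutant replicate 1 sat within the range of the libraries with Tyrobp and the other 4 above it. The log2 difference was 1.59 (SE 0.534, adjusted p = 0.244) for Tyrobp-/-;NLGF against NLGF and 0.55 (SE 0.485, adjusted p = 0.690) for the compound mutant against Inpp5d+/-;NLGF. The pooled Tyrobp effect was a 2.10-fold higher level (95% interval 1.20 to 3.67, adjusted p = 0.140). The Cd74 comparisons did not differ from each other beyond error (interaction -1.04, SE 0.722, adjusted p = 0.999901), and nor did those of H2-Eb1 (-0.58, SE 0.630, the same adjusted p).

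In edgeR the pooled calls turned on compound mutant replicate 1. Without it, the pooled effect was 1.23 (SE 0.241, adjusted p = 0.0282) on the log2 scale for H2-Eb1 and 1.26 (SE 0.276, adjusted p = 0.0427) for Cd74, and 3.75% of 20010 genes passed. DESeq2 in place of edgeR called H2-Eb1 in Tyrobp-/-;NLGF against NLGF (1.36, adjusted p = 0.0288), where it called 5.08% of all genes. In the pooled effect it called H2-Eb1 (1.06, adjusted p = 0.00336) and Cd74 (1.08, adjusted p = 0.0465), with 10.6% of all genes called, and that replicate was kept in these fits. For the compound mutant against Inpp5d+/-;NLGF, leaving out 1 library gave log2 differences of 0.25 to 1.16 for H2-Eb1 and 0.22 to 0.94 for Cd74, none called. Both lowest values came without compound mutant replicate 2, and the highest came without Inpp5d+/-;NLGF replicate 3 for H2-Eb1 and without compound mutant replicate 1 for Cd74.

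H2-Aa and H2-Ab1, which form the I-A molecule, the class II molecule these mice can display, differed less. H2-Aa stood at 203, 134 and 246 CPM in NLGF, 128, 150 and 222 in Inpp5d+/-;NLGF, 237 and 208 in Tyrobp-/-;NLGF and 71.1, 258 and 187 in the compound mutant. H2-Ab1 stood at 289, 248 and 409, then 230.02, 246 and 384, then 474 and 448, then 173, 515 and 330.3 CPM in the same order. The groups overlapped in H2-Aa throughout, and in H2-Ab1 both Tyrobp-/-;NLGF libraries exceeded the 3 NLGF libraries, while the compound mutant spanned the whole range of the 11 libraries. The pooled Tyrobp effect was 1.09-fold for H2-Aa (95% interval 0.676 to 1.75, adjusted p = 0.901) and 1.32-fold for H2-Ab1 (0.872 to 1.99, adjusted p = 0.484).

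The peptide editor and its inhibitor gave the tightest bounds. H2-DMa stood at 371, 332 and 461 CPM in NLGF, 291, 396 and 398 in Inpp5d+/-;NLGF, 309 and 350.3 in Tyrobp-/-;NLGF and 322, 308 and 372 in the compound mutant. All 4 groups overlapped, and the pooled effect was 0.885-fold with an interval of 0.737 to 1.06 (adjusted p = 0.485). H2-DMb1, the main DM beta chain gene, stood at 224, 244 and 284, then 183, 262 and 238, then 239 and 222, then 187, 239 and 209 CPM in the same order. Its pooled effect was 0.924-fold with an interval of 0.775 to 1.102 (adjusted p = 0.670), so a 2.08-fold higher level, the average for H2-Eb1, lies outside the interval of either gene. H2-DMb2, the second DM beta chain gene, was lower and followed the chains more closely. It stood at 16.8, 18.3 and 22.5 CPM in NLGF, 13.6, 17.3 and 21.8 in Inpp5d+/-;NLGF, 26.5 and 24.8 in Tyrobp-/-;NLGF and 11.7, 25.4 and 19.0 in the compound mutant (pooled log2 effect 0.25, SE 0.213, adjusted p = 0.594). H2-DMb1 and H2-DMb2 transcripts are 96% identical over 1045 aligned bases, with a shared run of 221 bases, so reads between them are uncertain.

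H2-Oa stood at 18.6 to 28.5 CPM in NLGF, 18.9 to 35.99 in Inpp5d+/-;NLGF, 19.7 to 24.8 in Tyrobp-/-;NLGF and 22.8 to 37.6 in the compound mutant. H2-Ob stood at 97.9 to 130.3, 66.4 to 122, 89.1 to 98.5 and 90.9 to 124 CPM in the same order. Both genes of the DO dimer overlapped in every comparison of groups, and their pooled log2 effects were -0.08 (SE 0.218) for H2-Oa and -0.08 (SE 0.166) for H2-Ob. H2-Oa and H2-DMa share 321 and 360 exon bases with genes on the opposite strand, BC051537 and Brd2, and whether counting used strand is not given in the sources used here.

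Ciita was at the edge of detection and uneven. It held 47, 23 and 31 reads in NLGF, 0, 0 and 15 in Inpp5d+/-;NLGF, 305 and 57 in Tyrobp-/-;NLGF, and 1, 171 and 8 in the compound mutant. The largest counts came from Tyrobp-/-;NLGF replicate 1 and compound mutant replicate 2, and the pooled log2 effect of 2.59 had an SE of 1.34 (adjusted p = 0.341). Its exons share 329 bases with Dexi on the opposite strand, whose median was 22.6 CPM.

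No member was called in any of the 6 comparisons by edgeR, nor by limma-voom. Among all 20390 genes, 0.863% were called in Tyrobp-/-;NLGF against NLGF, 0.897% in the compound mutant against Inpp5d+/-;NLGF and 4.75% in the pooled effect. At an unadjusted p under 0.05, 2 members (H2-Eb1 and Cd74) were higher in Tyrobp-/-;NLGF than in NLGF, against 6.09% of all genes, and the same 2 in the pooled effect, against 10.1%. In the compound mutant comparison no member reached an unadjusted p under 0.05, against 13.4% of all genes in either direction. Both Tyrobp comparisons enter the pooled effect, so it is no independent count. By level alone, 5 of 10 members did not overlap between Tyrobp-/-;NLGF and NLGF (H2-Ab1, H2-Eb1, Cd74, H2-DMb2 and Ciita), against 29.6% of all genes. None of 10 was free of overlap between the compound mutant and Inpp5d+/-;NLGF (18.6% of all genes), or between the 5 libraries without Tyrobp and the 6 with it (6.17%). The median log2 effect over the members was 0.31 in Tyrobp-/-;NLGF against NLGF (0.00 over all genes) and 0.09 in the compound mutant comparison (0.02 over all genes).

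**Figure D2:**
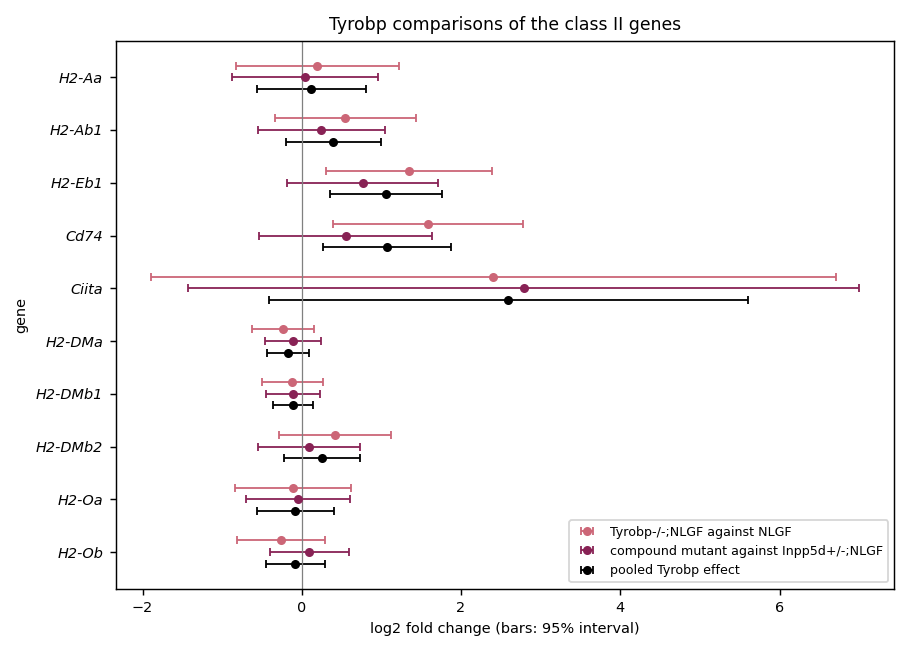
Log2 fold change with 95% interval (horizontal axis) of each class II gene (vertical axis) in Tyrobp-/-;NLGF against NLGF, in the compound mutant against Inpp5d+/-;NLGF, and in their average. H2-Eb1 and Cd74 lie to the right of 0 with averages of 1.06 and 1.07, the H2-DMa and H2-DMb1 intervals are narrow and include 0, and the Ciita intervals are the widest.

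Inpp5d heterozygosity gave no member call with Tyrobp present or absent. In Inpp5d+/-;NLGF against NLGF, where 0% of all genes were called, H2-Eb1 differed by -0.05 (SE 0.422), H2-Ab1 by -0.14 (SE 0.356) and Cd74 by 0.36 (SE 0.484) on the log2 scale, each with an adjusted p of 1. At an unadjusted p under 0.05 no member was called there (4.66% of all genes). In the compound mutant against Tyrobp-/-;NLGF, where 0.00981% of all genes were called, H2-Eb1 differed by -0.63 (SE 0.466) and Cd74 by -0.68 (SE 0.534), again with an adjusted p of 1 and no member at an unadjusted p under 0.05 (4.08% of all genes). The interaction called no member and 0% of all genes, and no member had an unadjusted p under 0.05 in it (4.7% of all genes). DESeq2 called no member in these 3 comparisons either. The intervals are wide: for H2-Eb1 the compound mutant could lie between 0.314 and 1.33 times the level of Tyrobp-/-;NLGF. Cd74 was the only member without overlap between these 2 groups (18.8% of all genes), with 399 and 424 CPM against at most 363. Ciita was the only one between Inpp5d+/-;NLGF and NLGF (7.62%).

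The chains did not keep a fixed proportion to one another. The ratio of H2-Eb1 to H2-Aa reads within a library, which needs no scaling between libraries, was 0.335, 0.346 and 0.294 in NLGF and 0.361, 0.301 and 0.398 in Inpp5d+/-;NLGF. It was 0.711 and 0.710 in Tyrobp-/-;NLGF and 0.632, 0.633 and 0.526 in the compound mutant. All 5 libraries without Tyrobp lay above all 6 with it, and compound mutant replicate 1, the lowest library for both genes in CPM, had a ratio close to that of replicate 2. Group means were 0.325 ± 0.0276 (SD, n = 3), 0.354 ± 0.0490 (n = 3), 0.710 ± 0.000157 (n = 2) and 0.597 ± 0.0613 (n = 3).

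The ratio of H2-Eb1 to H2-Ab1 behaved alike, at 0.177 to 0.236 in the 6 libraries with Tyrobp against 0.259 to 0.355 in the 5 without. The ratio of Cd74 to H2-Aa was 0.644, 0.599 and 0.811 in NLGF, 1.19, 0.783 and 1.16 in Inpp5d+/-;NLGF, 1.68 and 2.03 in Tyrobp-/-;NLGF and 1.36, 1.41 and 1.67 in the compound mutant. It too separated the genotypes, and all but 1 of the Inpp5d+/-;NLGF libraries lay above the 3 NLGF libraries. H2-Ab1 to H2-Aa, the ratio of the I-A chains, overlapped, at 1.65 ± 0.219, 1.72 ± 0.0766, 2.07 ± 0.105 and 2.07 ± 0.340 in the same order. The 3 separating ratios were found among all 45 pairs of members, after the values were seen, and carry no test. Over all other genes, 1.42% of 20389 had a ratio to H2-Aa that separated the 5 libraries from the 6, and 0.893% had one that was higher without Tyrobp. CPM alone separated them for 6.17% of genes. H2-Aa ran from 71.1 to 258 CPM within the compound mutant, and that spread enters the ratio of any gene that did not follow it. The shares are thus a low baseline, and none was computed for ratios to H2-Ab1.

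**Figure D3:**
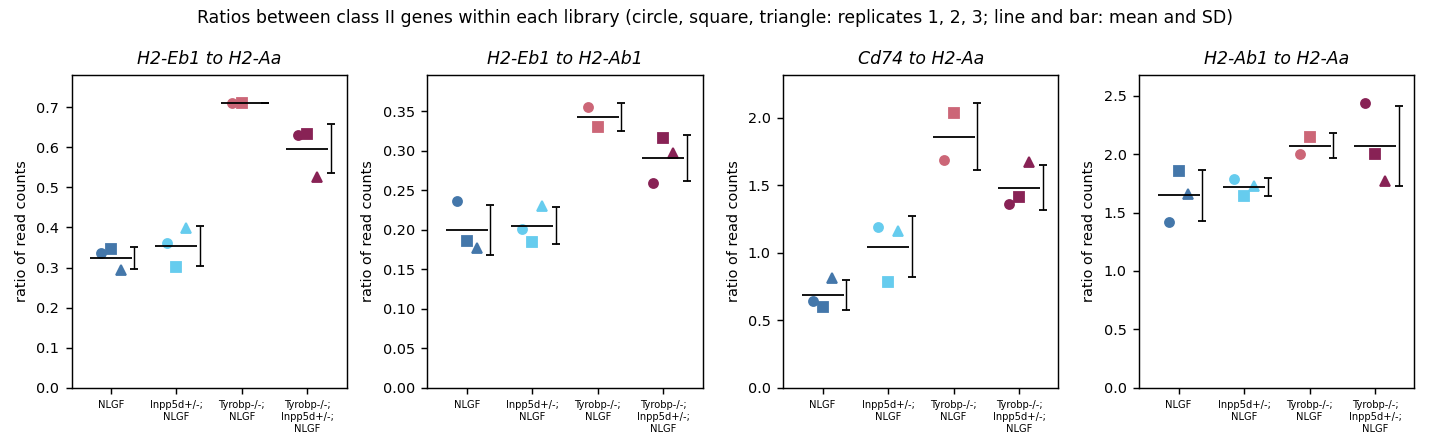
Ratio of read counts of 2 class II genes within each library (vertical axes, each from 0) by genotype; points are libraries, lines and bars the mean and SD. The libraries without Tyrobp lie above all others in the first 3 panels, compound mutant replicate 1 included, and overlap with them for H2-Ab1 to H2-Aa.

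Markers of other myeloid cells were higher in the libraries without Tyrobp. The 10 monocyte markers summed to 14.99 to 62.8 CPM in the 6 libraries with Tyrobp, to 2015 and 503 CPM in Tyrobp-/-;NLGF and to 111, 1094 and 301 in the compound mutant. Chil3 was the largest part of each sum without Tyrobp, at 1421 and 307 CPM in Tyrobp-/-;NLGF and 64.0, 744 and 201 in the compound mutant. All 10 had a higher mean without Tyrobp, and 3 did not overlap (6.17% of all genes in either direction). Within the compound mutant, replicate 2 was highest and replicate 1 lowest for Ly6c2, a marker of inflammatory monocytes, and 7 of the 10 members had the order of Ly6c2 there, against 17.2% of all genes. H2-DMa, H2-Oa and H2-Ob did not. The 12 neutrophil markers summed to 0.737 to 233.2 CPM with Tyrobp. They summed to 19197 and 4438 CPM in Tyrobp-/-;NLGF and to 256, 9904 and 2286 in the compound mutant. All 12 were higher in mean without Tyrobp, and 5 did not overlap (6.17% of all genes in either direction). Across the libraries without Tyrobp the neutrophil and monocyte sums had the same order, so these sums do not tell the 2 cell types apart.

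Border-associated macrophage markers summed to 6.83 to 37.8 CPM with Tyrobp and to 28.9 to 135 CPM without, 9 of 10 higher in mean. Only F13a1 did not overlap (6.17% of all genes in either direction), at 0 to 7.11 CPM with Tyrobp and 11.9 to 114 CPM without. Mrc1 stood at 0 to 16.4 CPM with Tyrobp and 0.388 to 17.2 CPM without. Folr2, the marker with a lower mean, stood at 0.749 to 10.9 and 0.370 to 3.61 CPM. Conventional dendritic cell markers summed to 106 to 124 and 113 to 169 CPM, 8 of 10 higher in mean and none free of overlap. Fscn1, the largest part of each sum, stood at 83.9 to 105 CPM with Tyrobp and 73.3 to 99.5 without. Fscn1 and Xcr1 were lower in mean without Tyrobp, and Xcr1 stood at 1.01 to 5.40 and 1.89 to 2.23 CPM. Among the higher ones Cd209a, a marker of monocyte-derived and conventional dendritic cells, stood at 0 to 11.2 CPM with Tyrobp and 10.5 to 47.0 without. B cell markers summed to 479 to 578 and 533 to 589 CPM, 4 of 10 higher in mean, and Ms4a1, Igkc and Blk were at 0 in all 11 libraries. The 10 T and NK cell markers went the other way in sum, at 1.61 to 12.2 CPM with Tyrobp and 0.388 to 3.68 CPM without. Yet 4 of 10 were higher in mean without Tyrobp, and Cd3e, Cd3g, Cd8b1 and Ncr1 were at 0 in all libraries. Of the 3 that passed the filter, 1 was called in the pooled effect, the NK cell receptor gene Klrb1c, which fell (adjusted p = 0.0295). Klrb1c stood at 0.621 to 11.7 CPM in the libraries with Tyrobp and at 0 to 0.342 CPM in those without. The other 2 were higher and not called, Cd3d by 1.04 (SE 0.962) and Nkg7 by 2.11 (SE 1.94) on the log2 scale. The part of border macrophages and dendritic cells in the class II values was not tested, and values that bear on monocytes and neutrophils follow.

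Without the 2 libraries that held most S100a8 (Tyrobp-/-;NLGF replicate 1 and compound mutant replicate 2), an alternative chosen after seeing the data, the pooled log2 effect was 0.75 (SE 0.319, adjusted p = 0.387) for H2-Eb1 and 0.93 (SE 0.429, adjusted p = 0.438) for Cd74. With the mean log2 CPM of the monocyte markers as a covariate, also added later, the signs turned: -0.79 (SE 0.473) for H2-Eb1, -0.78 (SE 0.673) for Cd74, -1.17 (SE 0.394) for H2-Ab1 and -1.59 (SE 0.540) for H2-Aa, none of them called. Monocyte marker sums do not overlap between the Tyrobp genotypes, so that fit separates genotype and covariate poorly.

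**Figure D4:**
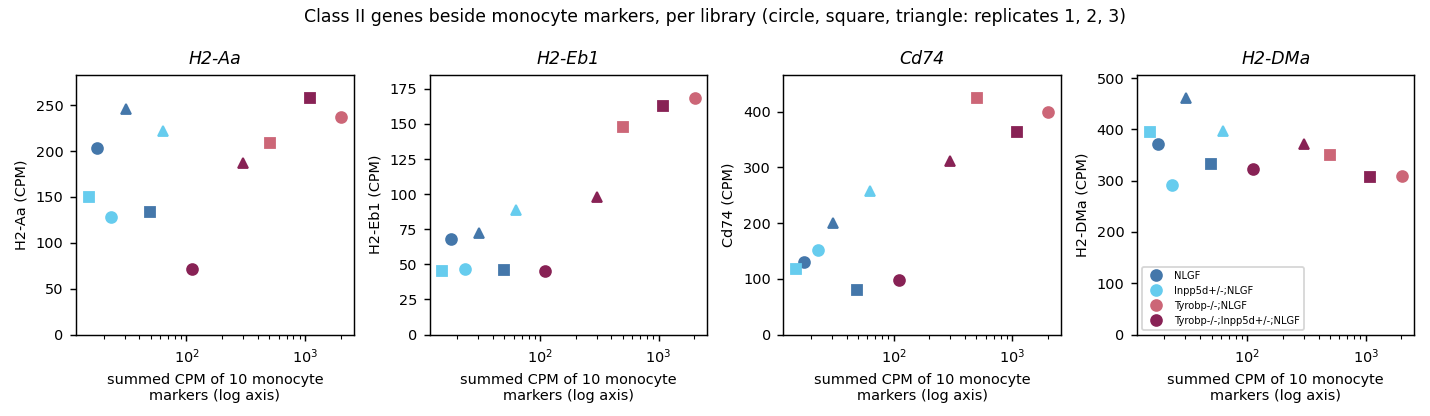
CPM of H2-Aa, H2-Eb1, Cd74 and H2-DMa (vertical axes, from 0) against the summed CPM of 10 monocyte markers (horizontal axis, log scale); each point is 1 library. The 4 libraries with the largest marker sums, 301 to 2015 CPM, hold the highest H2-Eb1 and Cd74, and H2-DMa stays at 291 to 461 CPM throughout. Chil3 is the largest part of the marker sum in each library without Tyrobp, and the neutrophil marker sums had the same order across those libraries.

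By the similarity of log2 CPM over the 11 libraries to the mean of H2-Aa, H2-Ab1, H2-Eb1 and Cd74, 8 genes led 14098 candidates with a mean of at least 1 CPM. They were Mir5107 (Pearson r = 0.956), C3 (0.944), Mmp9 (0.931), Apobr (0.921), Mcemp1 (0.919), Pik3ca (0.910), Fam49a (0.903) and Chchd6 (0.894). Mir5107 lies within Cd74 and shares 12 exon bases with it, C3 is the central complement component, and Mmp9 is one of the neutrophil markers. These points share library and depth, and the correlations are given as descriptions. Among the other members, H2-DMb2 (0.907) and Ciita (0.752) were most like that mean, H2-DMb1 (0.333) and H2-Oa (0.122) less so, and H2-DMa (0.0494) and H2-Ob (0.00627) not at all.

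The proteolytic steps before peptide loading held most of the calls in the pathway around the members. Of 10 endosomal processing genes, 3 rose and 4 fell in the pooled Tyrobp effect, where 2.08% of all genes rose and 2.66% fell. Their median log2 difference was 0.14 against 0.02 over all genes. Ctsl, the protease cathepsin L, fell from 3608 ± 207 CPM (SD, n = 3) in NLGF to 2016 ± 62.7 (n = 2) in Tyrobp-/-;NLGF and from 3650 ± 86.0 (n = 3) in Inpp5d+/-;NLGF to 2434 ± 92.5 (n = 3) in the compound mutant. Its log2 changes were -0.84 (SE 0.0669, adjusted p = 0.000493) and -0.58 (SE 0.0586, adjusted p = 0.00251). Ctsb (cathepsin B) fell by 0.61 and Ctsz (cathepsin Z) fell by 0.61 on the log2 scale in the pooled effect (adjusted p = 0.00151 and 0.00308). Ctsd, an aspartic protease, stood at 26382 ± 569, 25626 ± 2027, 19981 ± 1222 and 20641 ± 1043 CPM in the 4 groups and was the fourth that fell.

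The 3 that rose were Ifi30, Cst3 and Lgmn. Ifi30 encodes the thiol reductase that opens disulphide bonds of antigens, and stood at 59.0 ± 3.26, 78.0 ± 10.7, 99.6 ± 15.9 and 106 ± 5.92 CPM in NLGF, Inpp5d+/-;NLGF, Tyrobp-/-;NLGF and the compound mutant. Cst3, the cathepsin inhibitor cystatin C, stood at 15631 ± 1758, 17426 ± 1326, 25100 ± 2059 and 22416 ± 1668 CPM, and Lgmn, an asparagine-specific protease, at 3885 ± 206, 3717 ± 229, 4612 ± 135 and 4686 ± 223 CPM. Ctss, which makes the final cut in the invariant chain, was not called, at 8911 ± 1389, 9146 ± 848, 10403 ± 208 and 10360 ± 2811 CPM. In the separate comparisons, 2 rose and 3 fell in Tyrobp-/-;NLGF against NLGF (0.255% and 0.608% of all genes), and 0 rose and 3 fell in the compound mutant against Inpp5d+/-;NLGF (0.265% and 0.633%).

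Upstream of Ciita, 1 of 11 tested genes of the interferon-gamma list rose in the pooled effect, Ifngr1, a receptor chain, by 0.30 (SE 0.0684, adjusted p = 0.0397) on the log2 scale, while Ifng did not pass the filter. In that effect 2.08% of all genes rose. All 11 genes were higher, 4 of them at an unadjusted p under 0.05 (10.1% of all genes), with a median of 0.30 against 0.02 over all genes. None of 12 factors and cofactors of the class II promoters was called, with a median of 0.16, nor was any of 13 class I presentation genes (median -0.02) or 5 genes of invariant chain cleavage and class II turnover (median -0.18), against 0.02 over all genes. Among 7 co-stimulation and checkpoint genes, Cd274, which encodes the inhibitory ligand PD-L1, fell by 1.03 (SE 0.169, adjusted p = 0.00953). It stood at 39.3 ± 7.25 and 38.6 ± 6.35 CPM in NLGF and Inpp5d+/-;NLGF and at 16.2 ± 1.23 and 22.4 ± 5.25 CPM in Tyrobp-/-;NLGF and the compound mutant. The other 6 genes were all higher, 5 of them at an unadjusted p under 0.05 (10.1% of all genes were higher at that p), and none was called. Pdcd1lg2 and Cd40 among them were low. Pdcd1lg2 stood at 0 CPM in all libraries with Tyrobp and at most 0.777 CPM without. Cd40 stood at 0 to 2.20 CPM with Tyrobp and 0.885 to 9.94 CPM without. The median over the 7 was 0.37 on the log2 scale, against 0.02 over all genes.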

How the data were processed

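RNA was sequenced from 11 libraries of sorted mouse microglia. The authors deposited one table of raw read counts per gene. Its length column, in bases and of no sample (other), is the summed exon length, per the file headers. STAR 2.7.3a, featureCounts 1.6.4 and the builds GRCm38.p6 and mm10 are named per the submitters' processing notes; annotation release, multimapping and strand options were not given in the sources used here. Groups came from the genotype labels, and replicates were numbered in accession order and pair nothing.

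Counts were tested with edgeR 4.0.16 (R 4.3.3; TMM, filterByExpr with a minimum count of 10, quasi-likelihood test, 1 coefficient per group over 11 libraries, Benjamini-Hochberg adjustment over 20390 genes, threshold 0.05), tested on simulated data. CPM use TMM-scaled library sizes, and RPKM divide them by exon length. Correlations, and the ratios to H2-Aa over all genes, used log2 of CPM plus 0.1. Alternatives used limma 3.58.1, DESeq2 1.42.0, other scalings and filters, and left-out libraries. Depth was 29490567 to 66637052 reads per library, and floors of 3 reads cover counting error only. No libraries held identical counts.

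The members and lists were chosen with earlier results of these data known. Named were all members, the targeted genes, up to 3 called genes per pathway list by smallest p, and the 8 genes most like the mean of H2-Aa, H2-Ab1, H2-Eb1 and Cd74. Ctsd, Ctss, Ifi30, Cst3, Lgmn, H2-Ea and the marker genes were named after their values were seen, as were the ratios.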

Additional observations from a re-analysis of the deposited data

How the results depend on the processing

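No member was called under RLE or upper-quartile scaling, without a filter, with a stricter filter, with limma-voom, in fits of the 2 groups compared, or in either alternative added after seeing the data. DESeq2 called 1 member in Tyrobp-/-;NLGF against NLGF and 2 in the pooled Tyrobp effect. Leaving out each library in turn gave 0 to 2 members in the pooled effect, the 2 being H2-Eb1 and Cd74 without compound mutant replicate 1. Over all members, comparisons and alternatives, 1076 log2 effects kept their direction and their side of the threshold, 5 passed it, and 92 turned sign, none of these called. An arm left with 1 library took its spread from the other groups. The cause of the changes below was not tested.

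Log2 effects whose sign turned when 1 library was left out are given as ranges, first those that the report or its plots print. For Tyrobp-/-;NLGF against NLGF they were -0.012 to 0.41 for H2-Aa and -0.29 to 0.045 for H2-Oa. For the compound mutant against Inpp5d+/-;NLGF they were -0.37 to 0.41 for H2-Aa, -0.19 to 0.56 for H2-Ab1, -0.24 to 0.0086 for H2-DMb1, -0.19 to 0.34 for H2-DMb2, -0.31 to 0.14 for H2-Oa, -0.13 to 0.26 for H2-Ob and -0.62 to 8.67 for Ciita, with the lowest H2-Aa, H2-Ab1, H2-DMb2 and Ciita values without compound mutant replicate 2. The pooled effect ran from -0.088 to 0.30 for H2-Aa and from -0.21 to 0.013 for H2-Oa. Inpp5d+/-;NLGF against NLGF ran from -0.45 to 0.11 for H2-Eb1, from -0.41 to 0.10 for H2-Ab1 and from -0.025 to 0.75 for Cd74. Of the effects not printed there, it ran from -0.20 to 0.049 for H2-DMa, from -0.32 to 0.025 for H2-DMb2 and from -0.33 to 0.065 for H2-Ob. The compound mutant against Tyrobp-/-;NLGF ran from -0.79 to 0.0011 for H2-Aa and from -0.072 to 0.11 for H2-DMa. The interaction ran from -0.57 to 0.22 for H2-Aa, -0.73 to 0.014 for H2-Ab1, -0.029 to 0.22 for H2-DMa, -0.13 to 0.13 for H2-DMb1, -0.20 to 0.26 for H2-Oa and -3.03 to 6.27 for Ciita.

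limma-voom gave -0.059 for H2-Aa in the compound mutant against Inpp5d+/-;NLGF. Without the 2 libraries with most S100a8, that comparison gave -0.37 for H2-Aa, -0.18 for H2-Ab1, -0.19 for H2-DMb2, 0.085 for H2-Oa and -0.64 for Ciita. H2-Oa then stood at 0.045 in Tyrobp-/-;NLGF against NLGF and at 0.065 in the pooled effect, where H2-Aa stood at -0.13. With the monocyte marker covariate, Tyrobp-/-;NLGF against NLGF gave -1.88 for H2-Aa, -1.37 for H2-Ab1, -0.94 for H2-Eb1, -0.67 for Cd74, -1.02 for H2-DMb2 and -11.21 for Ciita. The compound mutant comparison gave -1.29, -0.97, -0.65, -0.89, -0.80 and -3.52 for the same genes and -0.22 for H2-Ob, and the pooled effect gave -1.59, -1.17, -0.79, -0.78, -0.91 and -7.37. The interaction for H2-Eb1 was then 0.28.

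No paired analysis was possible because replicate numbers follow accession order and pair no libraries. With 2 to 3 libraries a group, the intervals of H2-Aa, H2-Ab1, H2-Eb1, Cd74 and Ciita are wide, and depth limits Ciita alone among the members.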
